A study of Mus musculus with 2 samples.

Results

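Border-associated macrophages (BAM) were described in 2 single-cell RNA sequencing libraries of *Nf1*-OPG mouse optic nerves, named C-ON and FMC_new. *Nf1*-OPG mice are a model of the optic glioma that arises in neurofibromatosis type 1. A cell was taken as a BAM when *F13a1*, *Lyve1*, *Pf4* and *Cbr2* together had at least 4 unique molecular identifiers (UMIs, each of which stands for 1 captured RNA molecule), *Mrc1* had at least 1, and *Tmem119* and *P2ry12* together had at most 1. The members were thus chosen by the measured UMI counts of these 7 genes. They numbered 366 of 25652 cells (1.43%), namely 145 of 8834 cells in C-ON (1.64%, exact Clopper-Pearson 95% interval 1.39% to 1.93%) and 221 of 16818 in FMC_new (1.31%, interval 1.15% to 1.498%). All intervals cover counting error only.

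Both libraries carry the same genotype label and so form 1 group with 2 samples. The mice were *Nf1* flox/mut; GFAP-Cre on a C57BL/6 background, aged 12 weeks, with optic nerves of 10 mice pooled for each suspension. Cre is expressed from the GFAP promoter, which is active in astroglial cells, while the mutant *Nf1* allele is carried by every cell of these mice. The title of C-ON holds the word control without saying what it refers to, and the protocol also mentions meningeal duras collected apart from the nerves, although the tissue label of both libraries is optic nerve. No library of wild-type or *Nf1*+/- mice was analysed here, so no value given here compares glioma with its absence. Each library is 1 pool, and library is a term of the main fit. The p-values thus weigh a difference between cell classes against the variation of such differences between these 2 pools, which may be technical.

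Border-associated macrophages reside in the meninges, along blood vessels and in the choroid plexus, whereas microglia reside within nervous tissue. They are known for scavenger and lectin receptors that clear proteins, lipoproteins and cell debris at these borders. In the meninges a long-lived population that carries Lyve1 and little MHC class II lies beside one rich in MHC class II that is replenished in part by Ccr2-positive monocytes of the blood.

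The deposited libraries held 85101211 UMIs over 10845 barcodes in C-ON and 129113325 UMIs over 21341 barcodes in FMC_new. BAM had a median of 4041 UMIs and 1724 detected genes in C-ON and 5021 UMIs and 1910 genes in FMC_new. The libraries shared 296 barcode sequences, 188 of them among the cells kept. In FMC_new, *Gh*, which encodes growth hormone of the pituitary, had UMIs in all 221 BAM and in 99.9% of T cells, while C-ON BAM had no *Gh* UMI. T cells served as a rough measure of free RNA, since they should lack most macrophage genes. This measure may be too low for BAM. In FMC_new the level of *Gh*, given below, was higher in BAM than in T cells, although 31.7% of its BAM UMIs came from 1 cell. The summed myelin genes, also given below, were close in both classes. *Ccl5* had a UMI in 67.0% of C-ON T cells and in 5.52% of C-ON BAM. For such genes the T cell share is no measure of free RNA. The T cell gate also held 1 of the BAM of C-ON and 21 of those of FMC_new, which were kept as BAM and left out of the T cells.

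The genes of the gate describe the members and were not tested. *F13a1*, which encodes a subunit of coagulation factor XIII, was detected in 96.6% of C-ON and 91.4% of FMC_new BAM, with a median of 6 UMIs in both. *Pf4*, a chemokine gene shared with platelets, was detected in 80.7% and 76.0%. *Cbr2*, which encodes a carbonyl reductase, was detected in 62.1% and 54.3%. *Lyve1*, which encodes a hyaluronan receptor, was detected in 51.0% and 42.5%, with a median of 1 UMI in C-ON and 0 in FMC_new. The mannose receptor gene *Mrc1* had a median of 6 UMIs in C-ON and 3 in FMC_new. In T cells, at medians of 3820 and 3512 UMIs per cell, *F13a1* had a UMI in 0.816% and 1.49%, and *Lyve1* in 0% and 0.497%. Of the 4 summed genes, *F13a1* was detected in the most members and *Lyve1* in the fewest.

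Of the 4 summed genes, 55 BAM of C-ON (37.9%) and 63 of FMC_new (28.5%) had UMIs of all 4, and 15 (10.3%) and 24 (10.9%) had *F13a1* alone. Just inside the gate, 6 cells of C-ON and 23 of FMC_new had a sum of 4, and just outside it 8 and 32 cells had a sum of 3 with the other limits met. Cells with 1 UMI of *Mrc1* numbered 18 and 47, and cells with none that met the other limits numbered 24 and 120. Cells with 1 UMI of *Tmem119* or *P2ry12* numbered 40 and 67, and 27 and 53 cells had 2 or more with the other limits met. At an equal 1000 UMIs per cell the gate took 0.802% of C-ON and 0.460% of FMC_new cells.

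Whether the members were macrophages was checked on genes the gate did not use. *Csf1r*, the receptor on which macrophages depend for survival, was detected in 93.1% and 93.7% of BAM, against 1.43% and 3.37% of T cells. *C1qa*, which encodes a chain of complement C1q, was detected in 97.9% and 97.7%, and in 4.29% and 13.2% of T cells. Of the other cells that share a gate gene, lymphatic endothelium (*Lyve1*) was represented by 0 UMIs of *Flt4* in either library, platelets (*Pf4*) by 0 UMIs of *Ppbp* and *Gp9*, and the summed lymphatic list was at 26.8 CPM (UMIs per 1000000 UMIs of all cells of the class) in C-ON and 18.6 in FMC_new, against 28.01 and 17.3 in T cells. The summed platelet list was at 0 and 1.49 CPM. Genes of other lineages were present in some members: at least 2 UMIs of the T cell receptor complex genes were found in 1 BAM of C-ON and 23 of FMC_new (10.4%), at least 2 of *Mog* and *Mag* of oligodendrocytes in 24 (16.6%) and 10 (4.52%), and at least 2 of the glioma and precursor genes *Pdgfra*, *Neu4* and *Ptprz1* in 1 and 12 (5.43%). With B cell, neutrophil, fibroblast and endothelial genes counted as well, 26 BAM of C-ON and 53 of FMC_new had at least 2 UMIs of another lineage, and their part in the results was measured by leaving these cells out of every class.

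**Figure D1:**
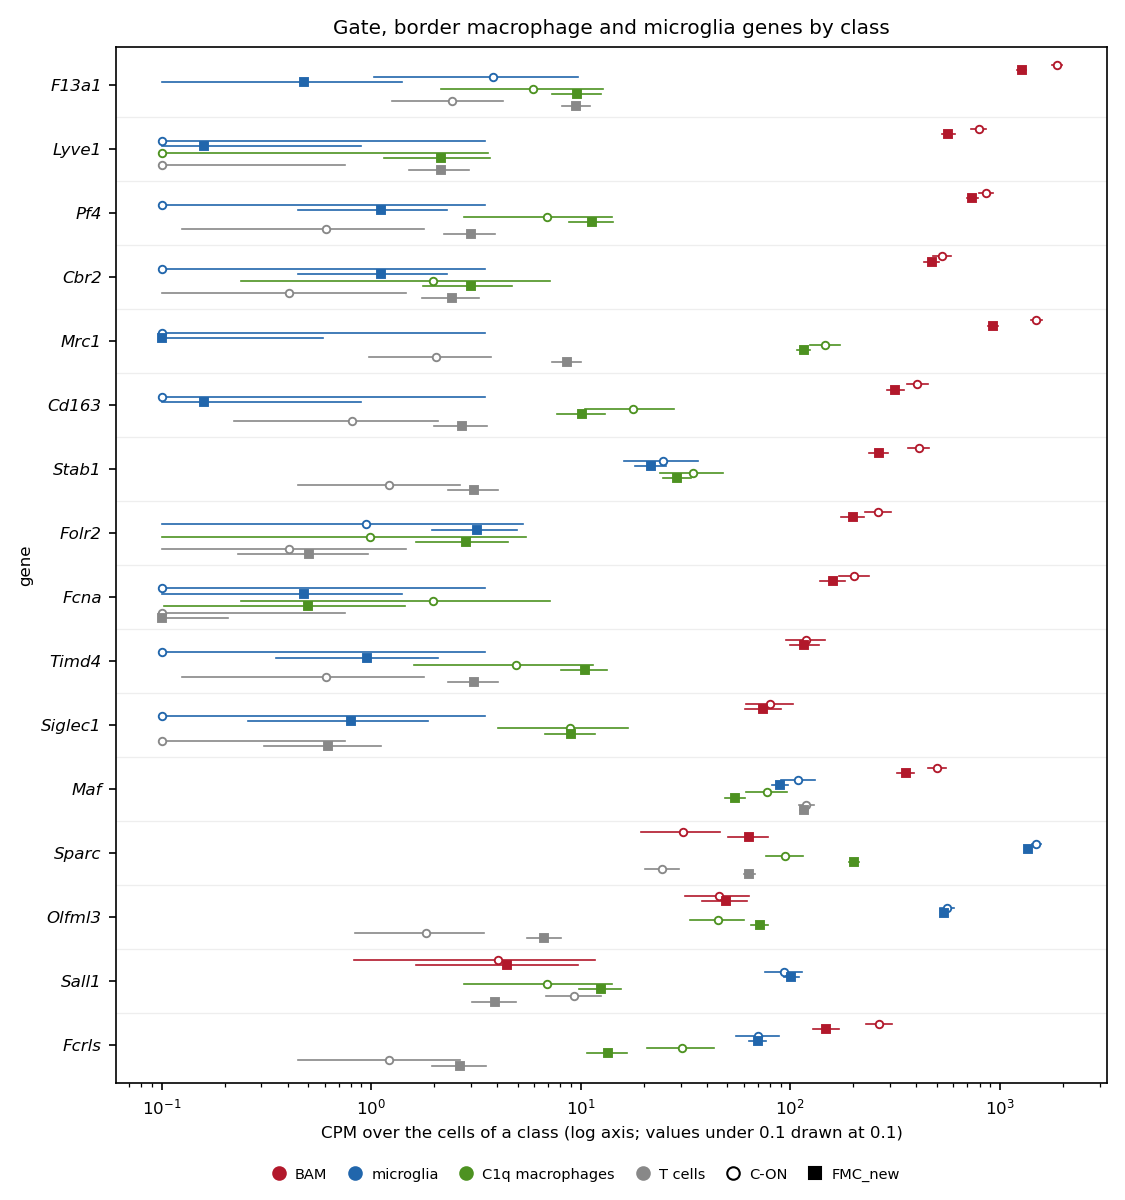
Levels of the 5 genes that the gate required, 7 other macrophage genes and 4 microglia genes, as CPM (log axis) over all cells of a class, with C-ON as open circles, FMC_new as filled squares and exact Poisson 95% intervals as lines. *Cd163*, *Folr2* and *Fcna* were at 160 CPM or more in BAM of both libraries and at 3.20 CPM or less in microglia, while *Sparc*, *Olfml3* and *Sall1* were highest in microglia.

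BAM were first compared with microglia, which number 153 cells in C-ON and 852 in FMC_new and were taken by at least 4 UMIs of *Tmem119* and *P2ry12*, none of *Mrc1* and at most 1 of the 4 BAM genes. Genes of the gates were left out of the test. In BAM most genes of a border macrophage list were higher and most genes of homeostatic microglia were lower, while scavenger receptor and chemokine genes went both ways. By edgeR's quasi-likelihood test on counts summed over the cells of a class, with library as a term and Benjamini-Hochberg adjustment, 895 of 10946 genes were higher in BAM (8.18%) and 911 were lower (8.32%) at an adjusted p under 0.05. Of these 1806 genes, 1770 went the same way in both libraries. The classes were set by marker genes, so differences in genes that go with those markers follow from the choice of cells. Without the library term 243 genes were higher and 337 lower, and DESeq2 called 424 and 427.

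*Cd163*, the receptor for haptoglobin and hemoglobin complexes, was at 404 CPM in C-ON and 318 CPM in FMC_new BAM. In microglia it had 0 UMIs in C-ON and 1 UMI in FMC_new, and no fold change is given (edgeR adjusted p = 1.11e-06). *Cd163* was found in 56.6% and 57.9% of BAM. *Fcna*, which encodes a ficolin that binds microbial sugars, was at 202 and 160 CPM in BAM and had 0 and 3 UMIs in microglia (edgeR adjusted p = 4.99e-06). The *Fcna* UMIs were in few cells, 24.1% of C-ON and 20.4% of FMC_new BAM, and 27.8% of those of C-ON came from 1 cell. *Timd4*, a receptor for phosphatidylserine on dying cells, was at 119 and 117 CPM in BAM with 0 and 6 UMIs in microglia (edgeR adjusted p = 7e-06). These genes lay far apart between the classes in both libraries.

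Among genes measured in both classes, *Ms4a4a*, a membrane gene of macrophages, was at 499 and 403 CPM in BAM and 1.90 and 3.36 in microglia, a log2 fold change of 7.18 ± 0.32 (SE, edgeR adjusted p = 4.99e-06). The folate receptor gene *Folr2* differed by 6.25 ± 0.31 (edgeR adjusted p = 5.84e-06), the scavenger receptor gene *Msr1* by 5.85 ± 0.44 (edgeR adjusted p = 3.6e-05) and *Stab1*, which encodes the scavenger receptor stabilin, by 3.79 ± 0.18 (edgeR adjusted p = 5.84e-06). *Lyz2*, the lysozyme gene of myeloid cells, was at 9207 and 9678 CPM in BAM and at 718 and 832 in microglia. *Apoe*, the main lipid carrier gene, was at 16499 and 17098 CPM against 4280 and 6484, a log2 difference of 1.68 ± 0.14 (edgeR adjusted p = 6.94e-05). Further genes named by the rule were *Cd93*, *Siglec1*, *Hal*, *Mgl2*, *Cxcl2* and *Clec4a1*.

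The genes lower in BAM were led by *Cd34* and the sulfotransferase gene *Gal3st4*, which were at 1.34 and 2.23 CPM and at 1.34 and 1.49 CPM in BAM, against 164 and 154 CPM and 122 and 113 CPM in microglia. *Sparc*, a matrix protein gene of resting microglia, was at 30.8 and 63.3 CPM in BAM against 1495 and 1358, a log2 difference of -4.96 ± 0.31 (edgeR adjusted p = 1.17e-05). *Sall1*, the transcription factor that marks microglia, was at 4.01 and 4.46 CPM against 93.1 and 101 (-4.50 ± 0.31, edgeR adjusted p = 2.1e-05). *Olfml3*, a further gene of resting microglia, was at 45.5 and 49.1 CPM against 560.4 and 540 (-3.53 ± 0.20, edgeR adjusted p = 7e-06). The others by the rule were *Adora3*, *Siglecf*, *Ccn3*, *Lag3*, *Serpine2*, *Capn3*, *Atp8a2* and *Adgrg1*. *Ccn3* was no longer called once cells with genes of another lineage were left out (adjusted p = 0.436).

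Of 26 tested genes on a list of border macrophage identity, 22 were higher than in microglia and 1 was lower, with a median log2 fold change of 4.15 against 0.02 over all genes tested. This list was drawn up with such macrophages in view, so its direction is no independent evidence. Among those higher was the transcription factor gene *Maf*, at 502 and 355 CPM against 109 and 89.4. Of 18 genes of homeostatic microglia, 15 were lower in BAM and 1, *Fcrls*, was higher, at 265 and 148 CPM against 70.3 and 69.9 (1.42 ± 0.23, edgeR adjusted p = 0.00304). *Fcrls*, an Fc receptor-like gene often used as a microglial marker, was also above the C1q macrophages, which were at 30.5 and 13.4 CPM.

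Other lists were divided. Of 18 scavenger and endocytic receptors, 7 were higher and 6 lower in BAM: the adaptor gene *Dab2* was higher by 4.71 ± 0.27 (edgeR adjusted p = 7e-06), while *Mertk*, which clears dying cells, was lower, at 209 and 142 CPM against 327 and 334. Of 12 complement genes, 4 were higher, among them *Cfp*, the gene of properdin, at 65.6 and 104 CPM against 3.80 and 4.96, and 5 were lower, among them *C1qa* (-0.74 ± 0.11, edgeR adjusted p = 0.00158). Of 15 lipid genes, 5 were higher, with the transfer protein gene *Pltp* at 351 and 301 CPM against 2.85 and 9.12, and 3 were lower, with *Trem2*, a lipid-sensing receptor gene, at 268 and 302 against 860 and 970. Of 11 genes of iron and heme handling, 3 were higher, among them *Cp*, the gene of the iron oxidase ceruloplasmin, at 186 and 188 CPM against 5.70 and 7.52, and 2 were lower. Of 15 interferon response genes, 9 were lower and 1 was higher. *Isg15*, a ubiquitin-like gene of that response, was at 66.9 and 85.6 CPM in BAM against 218 and 227 in microglia (-1.52 ± 0.16, edgeR adjusted p = 0.000239).

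Of 22 macrophage transcription factors, 5 were higher and 7 lower than in microglia. *Klf4* was higher, at 870 and 536 CPM against 319 and 267, and *Irf8* was lower, at 182 and 156 CPM against 333 and 405. Of 16 matrix and protease genes, 4 were higher and 7 lower, and of 16 cytokine and growth factor receptor genes, 1 was higher and 6 lower. *Mki67*, a gene of dividing cells, had a UMI in 0.690% of C-ON and 4.52% of FMC_new BAM and did not pass the test against microglia (edgeR adjusted p = 0.965). Of 16 genes that respond to tissue dissociation, 2 were higher and 2 lower, and *Fos* was at 3596 and 3970 CPM in BAM and 3981 and 4506 in microglia. Without the library term the calls of *Fcrls* (adjusted p = 0.0843), *Mertk* (0.0615), *C1qa* (0.138), *Klf4* (0.0843) and *Irf8* (0.07) against microglia were lost.

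Myelin genes moved with this comparison. All 6 oligodendrocyte markers were higher in BAM than in microglia, with *Mog*, a gene of the myelin surface, at 317 and 91.5 CPM against 143 and 52.5. T cells had 341 and 92.6 CPM of *Mog*, close to BAM in each library, and the summed list was at 12737 and 5785 CPM in BAM and 13015 and 6122 in T cells. The call of *Mog* was lost without the library term (adjusted p = 0.514) and without cells of other lineages (0.299). Pituitary genes also differed, with *Gh*, *Prl* and *Pomc* called as higher in BAM than in microglia. Against C1q macrophages *Gh* was higher and *Prl* and *Cga* lower. In the split by MHC class II given below, *Gh* was higher in the high cells. The summed pituitary list was at 23146 CPM in FMC_new BAM, 3415 in microglia and 18279 in C1q macrophages, and at most 5.35 in C-ON. The part of myelin or pituitary RNA in the other differences was not tested.

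**Figure D2:**
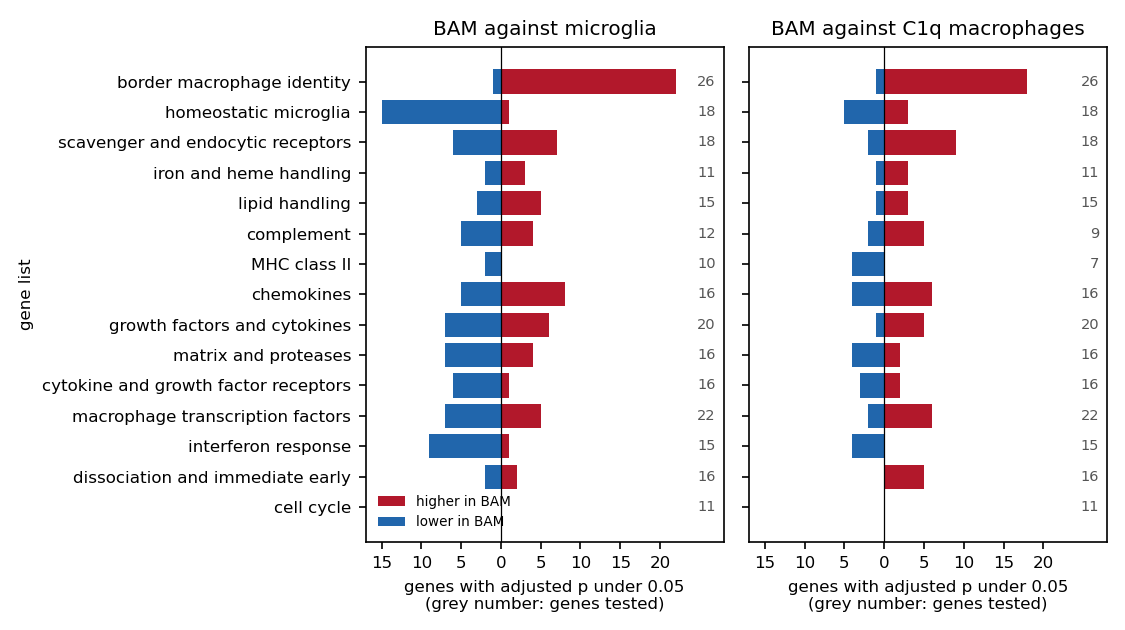
Genes of 15 lists that were higher (red, to the right) or lower (blue, to the left) in BAM than in microglia (left panel) or C1q macrophages (right panel) at an edgeR adjusted p under 0.05, with the number tested in grey. The identity list had 22 genes higher and 1 lower than microglia, and 18 higher and 1 lower than C1q macrophages. The homeostatic microglia list had 15 lower and 1 higher than microglia, and 5 lower and 3 higher than C1q macrophages.

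C1q macrophages were cells with at least 6 UMIs of C1q genes, at least 10 of MHC class II genes, and at most 1 of the BAM genes and of the microglia genes. They numbered 180 in C-ON and 1404 in FMC_new. Here 315 of 10940 genes were higher in BAM (2.88%) and 260 lower (2.38%), and 559 of these 575 genes (5.26% of those tested) went the same way in both libraries. BAM had more of several scavenger receptors and of *Ccl2*, *Ccl7* and *Ccl12*, while C1q macrophages had more *Il1b*, *Cxcl9*, *Itgax* and of *Cd74*, *H2-DMb2*, *H2-Oa* and *H2-Ob* of the MHC class II list. DESeq2 called 165 higher and 114 lower, and a fit with no library term 48 and 17. The same BAM cells enter this and the previous comparison, so the values of both are not independent.

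*Folr2* was at 264 and 199 CPM in BAM and at 0.983 and 2.82 in C1q macrophages, a log2 difference of 6.36 ± 0.31 (edgeR adjusted p = 1.93e-05). *Cd163* differed by 4.76 ± 0.20 (edgeR adjusted p = 1.25e-05), with 17.7 and 10.1 CPM in C1q macrophages. *Stab1* differed by 3.29 ± 0.17 (edgeR adjusted p = 2.27e-05) and was detected in 73.8% and 62.9% of BAM. *Gas6*, the ligand that bridges dying cells to Mertk, was at 245 and 177 CPM against 7.87 and 17.8 (3.62 ± 0.28, edgeR adjusted p = 0.000121). Its receptor gene *Mertk* was also higher, by 1.10 ± 0.18 (edgeR adjusted p = 0.00842). *Ltc4s*, the enzyme that makes leukotriene C4, was at 381 and 323 CPM against 19.7 and 32.7. In these genes the BAM of both libraries lay above the C1q macrophages of both. Except for *Mertk*, they were named by a rule that required the same direction in both libraries. The remaining genes by the rule were *Fcna*, *Ccl24*, *Ms4a4a*, *Colec12*, *Timd4*, *Fcrls* and *Ccl7*.

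Of the 26 identity genes, 18 were higher than in C1q macrophages and 1, *Fxyd5*, was lower. The median log2 fold change was 2.56 against -0.02 over all genes. Of 18 scavenger and endocytic receptors, 9 were higher and 2 lower. Of 9 complement genes, 5 were higher, among them *C4b* at 195 and 196 CPM against 72.8 and 90.8, and 2 were lower. *Hmox1*, which breaks down heme, was at 230 and 271 CPM against 71.8 and 91.5. *Csf1r* was higher in BAM than in C1q macrophages, at 1110 and 824 CPM against 422 in both (1.11 ± 0.15, edgeR adjusted p = 0.00278). Of 16 dissociation genes, 5 were higher in BAM and none lower, with *Jund* at 2459 and 1816 CPM against 1373 and 1251, and their part in this comparison was not tested. Without the library term the calls of *Mertk* (adjusted p = 0.1), *C4b* (0.0786), *Hmox1* (0.152), *Csf1r* (0.1), *Fxyd5* (0.293) and *Jund* (0.329) were lost, and that of *Jund* also without cells of other lineages (0.107).

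Lower in BAM than in C1q macrophages were *Itgax*, the integrin gene of dendritic cells and activated macrophages, at 9.37 and 4.46 CPM against 59.99 and 81.8, and *Cd209a*, a lectin gene of dendritic cells, at 25.4 and 36.5 against 213 and 175. The protease gene *Mmp12* had 0 and 10 UMIs in BAM and 60 and 435 in C1q macrophages (edgeR adjusted p = 0.00215; DESeq2 adjusted p = 0.289). Of 7 MHC class II genes tested, *Cd74*, *H2-DMb2*, *H2-Oa* and *H2-Ob* were lower and none higher; since the C1q gate demanded MHC class II UMIs, this direction follows from the choice of cells. *Ighv1-7*, *Ighv1-77*, *Igkv6-15*, *Ighv1-19* and *Ighg2b*, immunoglobulin genes of antibody-secreting cells, were also named by the rule as lower. The call of *Ighv1-7* was lost with DESeq2 (adjusted p = 0.544) and that of *Ighg2b* once cells with genes of another lineage were left out (0.296). Also lost, without the library term, were the calls of *Cd74* (adjusted p = 0.339), *H2-Oa* (0.188), *Lag3* (0.102), *Mmp12* (0.111), *Ighg2b* (0.541), *Ighv1-19* (0.118), *Ighv1-77* (0.0805) and *Igkv6-15* (0.0647). The other genes by the rule were *Cxcl9*, *Klrb1b*, *Lag3* and *H2-Oa*.

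The 16 chemokine genes of the list summed to 12064 CPM in C-ON and 10238 CPM in FMC_new BAM. Of these genes, 8 were higher and 5 lower than in microglia, and 6 were higher and 4 lower than in C1q macrophages. *Ccl2*, the attractant of Ccr2-positive monocytes, was at 3072 and 2229 CPM in BAM, at 466 and 439 in microglia and at 539 and 434 in C1q macrophages. The log2 difference was 2.54 ± 0.16 from microglia (edgeR adjusted p = 1.14e-05) and 2.37 ± 0.15 from C1q macrophages (edgeR adjusted p = 5.16e-05). It was detected in 73.1% and 72.9% of BAM against 0.918% and 2.90% of T cells, and at an equal 1000 UMIs per cell in 55.9% and 56.6%. *Ccl2* was thus spread over most members, and in neither library did its highest cell hold over 7.27% of its UMIs.

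*Ccl7*, which acts on the same receptor, was at 1882 and 1344 CPM in BAM against 68.4 and 52.2 in microglia (4.77 ± 0.24, edgeR adjusted p = 5.84e-06) and 127 and 176 in C1q macrophages (3.30 ± 0.22, edgeR adjusted p = 5.95e-05). *Ccl12* was at 1432 and 1820 CPM. It was above the C1q macrophages (2.02 ± 0.22, edgeR adjusted p = 0.000793; 0.191 without the library term) and differed from microglia by 0.49 ± 0.21, which did not pass the test (edgeR adjusted p = 0.151). *Cxcl2*, which attracts neutrophils, was at 1751 and 1386 CPM against 85.5 and 14.4 in microglia. Against the C1q macrophages, at 844 and 468 CPM, it did not pass (edgeR adjusted p = 0.0912). *Ccl24*, an attractant of eosinophils, was at 170 and 87.1 CPM in BAM and at most 8.16 CPM in the other 2 classes, and 20.7% and 17.2% of BAM had a UMI of it.

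None of *Ccl3*, *Ccl4* and *Ccl5*, which attract T cells and macrophages, passed the test as higher in BAM than in microglia or C1q macrophages. *Ccl3* was at 726 and 654 CPM and passed neither test (edgeR adjusted p = 0.179 and 0.935). *Ccl4* was at 848 and 917 CPM, below 1224 and 1863 in microglia (-0.76 ± 0.16, edgeR adjusted p = 0.01) and 1244 and 1944 in C1q macrophages (-0.89 ± 0.16, edgeR adjusted p = 0.0115), and both calls were lost without the library term (0.265 and 0.381). *Ccl5* was at 776 CPM in C-ON and 214 CPM in FMC_new and passed neither test. In C-ON 96.2% of the *Ccl5* UMIs came from 1 of the 145 cells, and 8 of them had any, whereas 67.0% of T cells had a *Ccl5* UMI.

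*Cxcl9* and *Cxcl10*, which attract activated T cells, were lower in BAM. *Cxcl10* was at 82.9 and 35.0 CPM against 156 and 266 in microglia (edgeR adjusted p = 0.00806) and 165 and 247 in C1q macrophages (edgeR adjusted p = 0.017), and both calls were lost without the library term (0.0809 and 0.178). *Cxcl9* was at 34.8 and 22.3 CPM, a log2 difference of -4.25 ± 0.42 from microglia (edgeR adjusted p = 0.000155) and of -4.01 ± 0.42 from C1q macrophages (edgeR adjusted p = 0.000619). T cells had 21.3 and 19.6 CPM of *Cxcl9*, close to the level in BAM. Of 20 growth factor and cytokine genes, 6 were higher and 7 lower than in microglia and 5 were higher and 1 lower than in C1q macrophages. *Igf1* was at 52.2 and 40.2 CPM against 1.90 and 4.0 CPM in microglia and 9.83 and 13.9 CPM in C1q macrophages, and the latter call was lost with DESeq2 (adjusted p = 0.164) and without the library term (0.1). *Il1b* was at 512 and 428 CPM, below the 1598 and 1604 of C1q macrophages (-1.84 ± 0.16, edgeR adjusted p = 0.00027).

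**Figure D3:**
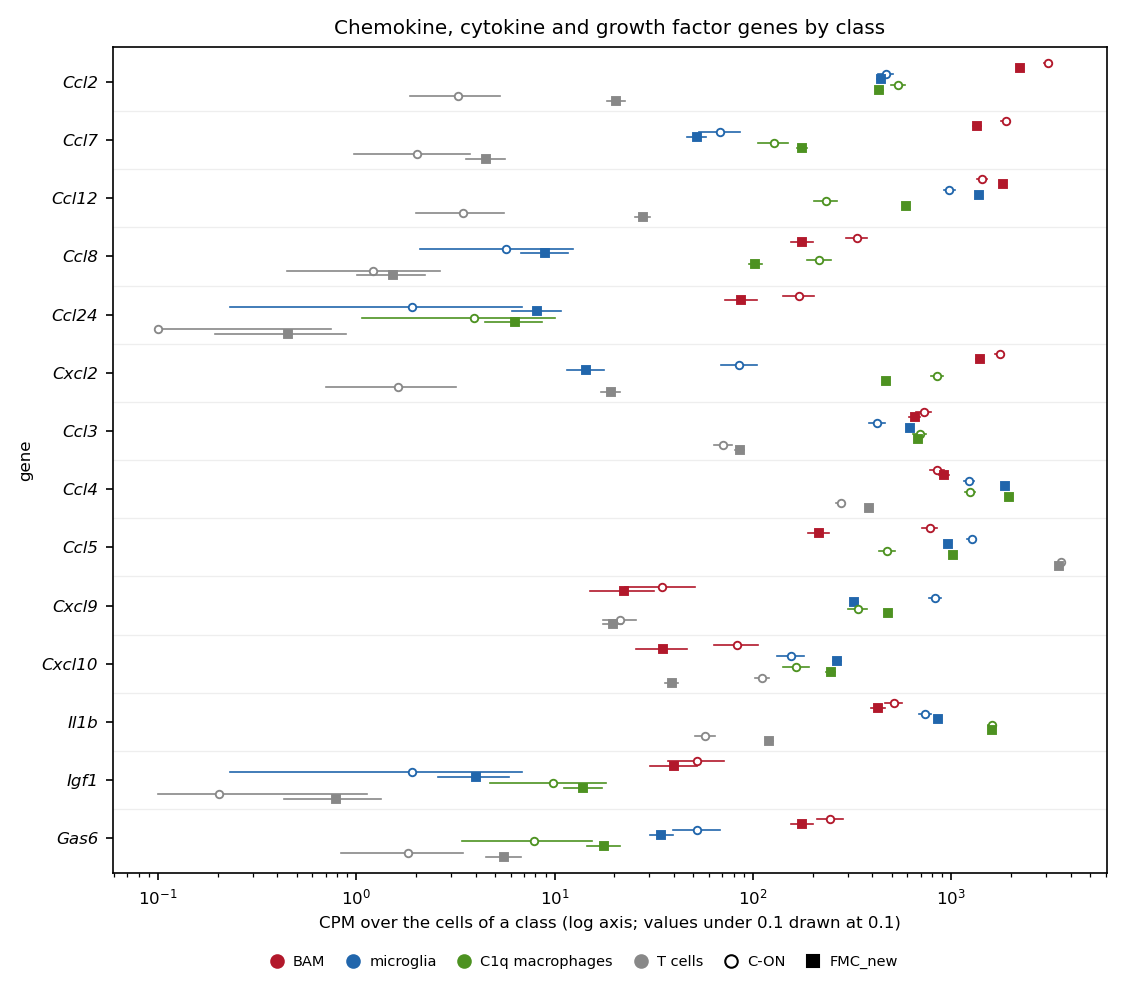
Levels of 14 chemokine, cytokine and growth factor genes as CPM (log axis) over all cells of a class, with C-ON as open circles, FMC_new as filled squares and exact Poisson 95% intervals as lines. For *Ccl2*, *Ccl7*, *Ccl24*, *Igf1* and *Gas6* both BAM values lay to the right of every other class, while *Ccl5* was highest in T cells and differed between the 2 BAM values.

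A last class was gated as monocytes by *Ly6c2*, *Ccr2* and *Lyz2* and held 11 cells in C-ON, too few to enter the fit, and 44 in FMC_new. Its gate also allowed at most 1 UMI of C1q genes, at most 1 of *Lyve1*, *Pf4* and *Cbr2*, and none of *Cd3d* and *Cd3e*. Differences in genes that go with these limits follow in part from the choice of cells. Of 10938 genes, 401 were higher in BAM (3.67%) and 372 lower (3.4%), 7.07% in all, where the lone FMC_new sum was assumed to vary like the other sums. Of 15 monocyte genes, 13 were lower in BAM than in this gate, with a median log2 fold change of -3.22 against 0.10 over all genes tested. Of 7 dendritic cell markers, 5 were lower and 1, *Siglech*, was higher in BAM. Among the 5, *Xcr1*, *Clec9a* and *Flt3* were at 150, 179 and 126 CPM in the gate in FMC_new, and the call of *Xcr1* was lost with DESeq2 (adjusted p = 0.89) and without the library term (0.0587). The class is named here by its gate only, and of the 12 genes most above it by the rule all had 0 UMIs there.

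The members were not uniform in MHC class II, the molecules that present peptides to CD4 T cells. UMIs of *H2-Aa*, *H2-Ab1* and *H2-Eb1* summed to a median of 6019 CPM of a cell in C-ON and 27552 in FMC_new. The lowest member had 0 in both libraries, the upper quartile began at 25730 and 40675, and the highest had 64063 and 68153. With a limit of 1000 CPM, 92 of 145 BAM (63.4%, interval 55.1% to 71.3%) were MHC-II-high in C-ON and 188 of 221 (85.1%, 79.7% to 89.5%) in FMC_new. Between 500 and 2000 CPM lay 18 and 16 cells. T cells passed the same limit in 4.18% and 12.6%. The intervals do not overlap, but each library is a single pool, so the shares differ between these libraries and no condition is compared. High cells were deeper than low cells, with medians of 4386 and 3605 UMIs in C-ON and 5031 and 4556 in FMC_new.

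**Figure D4:**
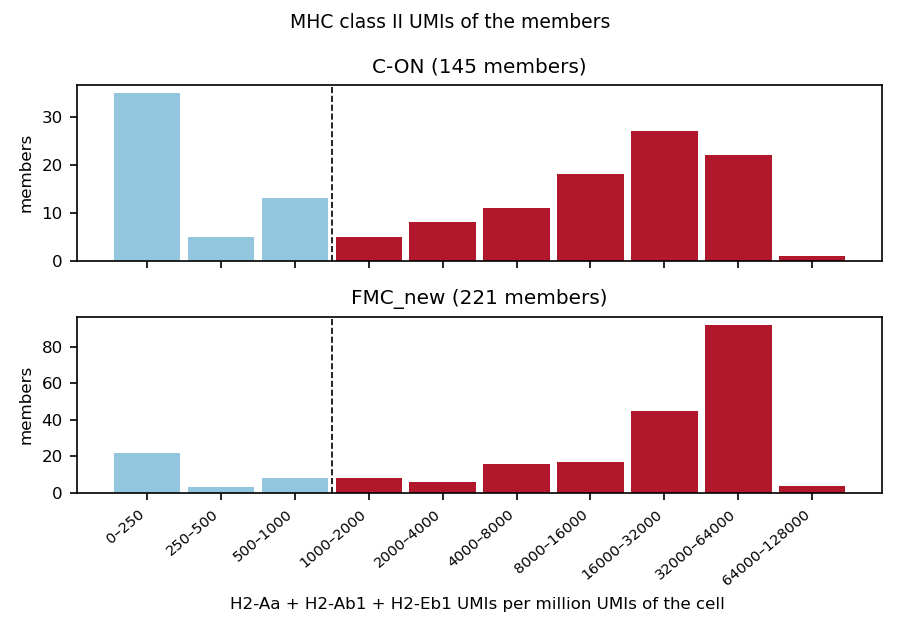
Number of BAM by the UMIs of *H2-Aa*, *H2-Ab1* and *H2-Eb1* as CPM of the cell, in bins whose limits double from 250 upward, for C-ON (top) and FMC_new (bottom), with the limit of 1000 as a dashed line. In C-ON 35 cells lay under 250, and the fullest bin above the limit was 16000 to 32000 with 27 cells, while in FMC_new 22 lay under 250 and 92 between 32000 and 64000.

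MHC-II-high and MHC-II-low BAM were compared as sums per library in the same kind of fit, without the 3 genes that set the limit and the genes of the gate. Of 11606 genes, 23 were higher in MHC-II-high cells (0.198%) and 12 lower (0.103%), 0.302% in all. A fit with no library term called 6 and 1. Immunoglobulin variable genes made up 9 of the 35, and 25 of the 35 went the same way in both libraries. At an unadjusted p under 0.05 there were 928.

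*Cd74*, the invariant chain that guides MHC class II, was at 24198 and 26828 CPM in high and at 1094 and 1113 in low cells, a log2 difference of 4.67 ± 0.11 (edgeR adjusted p = 7.18e-11). *H2-DMa*, *H2-DMb1* and *H2-DMb2*, whose products load the peptide, were higher as well. *H2-DMb1* was at 447 and 609 CPM against 48.8 and 58.0 (3.45 ± 0.27, edgeR adjusted p = 3.73e-05). *H2-DMa* was at 510 and 650 CPM against 77.3 and 127 (2.67 ± 0.22, edgeR adjusted p = 6.05e-05). *H2-DMb2* was at 160 and 150 CPM against 8.13 and 15.8, and as a close copy of *H2-DMb1* may share reads with it. These genes are switched on together with the 3 that set the limit, so their direction is no independent evidence.

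The bases before start sites are shown for some of these genes, from the RefSeq promoter table for GRCm38.p6. *H2-Aa* and *H2-Eb1* helped to set the limit and were not tested, while *H2-DMb1* and *H2-DMb2* were called as higher in high cells. Promoters of MHC class II genes are known for a shared row of motifs, of which the Y box holds an inverted CCAAT motif. Capitals mark GATTGG or its reverse complement, searched on both strands in the 120 bases before the start.
H2-Aa, chr17:34287824-34287943, minus strand: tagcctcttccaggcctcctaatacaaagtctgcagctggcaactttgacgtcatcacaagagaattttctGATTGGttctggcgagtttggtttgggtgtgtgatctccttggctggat
H2-Eb1, chr17:34305747-34305866, plus strand: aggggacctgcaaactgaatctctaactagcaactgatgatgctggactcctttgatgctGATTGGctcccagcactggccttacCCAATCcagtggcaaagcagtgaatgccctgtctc
H2-DMb1, chr17:34153071-34153190, plus strand: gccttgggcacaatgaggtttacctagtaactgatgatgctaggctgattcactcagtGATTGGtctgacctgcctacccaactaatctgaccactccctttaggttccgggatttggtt
H2-DMb2, chr17:34145129-34145248, plus strand: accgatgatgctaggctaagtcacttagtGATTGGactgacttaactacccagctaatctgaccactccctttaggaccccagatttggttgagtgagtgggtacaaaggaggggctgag

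Of the 10 genes on the MHC class II list, 7 were matched and used here. Promoters of a single chromosome were left out of this choice. *Cd74*, named first by the rule as higher in MHC-II-high cells, was not among the 7. Nor was *H2-Ab1*, which helped to set the MHC class II limit, so the count does not cover the whole list. Of the 7, 6 hold GATTGG in this window, *H2-DMa* being the other. Among 32851 promoters of the table, 9.67% hold it in the same 120 bases. That share is counted per promoter, and the 6 of 7 per gene. *H2-DMa* holds it before neither of its 2 start sites. The motif began 49 bases before the start in *H2-Aa*, 60 in *H2-Eb1*, 62 in *H2-DMb1* and 91 in *H2-DMb2*. A match is a description of the letters. The genes were taken from the MHC class II list, which was chosen with earlier results of these data known. *H2-Oa* and *H2-Ob* of that list were not called between high and low cells.

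Genes outside the MHC also differed between high and low cells. *Plbd1*, which encodes a phospholipase of myeloid cells, was at 138 and 161 CPM in high and at 4.07 and 15.8 in low BAM (edgeR adjusted p = 0.000545). *Ccr2*, the receptor of blood monocytes, had 58 and 84 UMIs in high cells and 0 and 3 in low cells (edgeR adjusted p = 0.0132). It was detected in 23.9% and 18.1% of high cells. In C-ON 0 of 53 low cells had a UMI, which allows a share of cells with a UMI of up to 5.66% at 3 counts, and in FMC_new 3.03% had one. *Fgl2*, which encodes a fibrinogen-like protein, was at 116 and 95.3 CPM against 24.4 and 21.1 (2.32 ± 0.34, edgeR adjusted p = 0.0087). *Fxyd5* was at 405 and 510 CPM against 122 and 142 (1.93 ± 0.24, edgeR adjusted p = 0.00162). *Ccl8*, a further chemokine, was at 495 and 198 CPM against 4.07 and 47.5 (edgeR adjusted p = 0.011), but only 9 BAM of C-ON had any and 41.0% of those UMIs came from 1 cell. *Acvrl1*, *Myo1e* and *Crip1* completed the genes by the rule, and each lost its call under both other limits, of 500 and 2000 CPM.

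Lower in MHC-II-high cells was *Ccl24*, at 27.9 and 32.1 CPM against 459 and 422 in low cells, a log2 difference of -3.76 ± 0.30 (edgeR adjusted p = 3.8e-05). *Folr2* was at 179 and 138 CPM against 435 and 569 (-1.55 ± 0.24, edgeR adjusted p = 0.011). *Ccl2* was at 1918 and 1844 CPM against 5424 and 4572 (-1.27 ± 0.15, edgeR adjusted p = 0.000923). *Stab1* was at 291 and 230 CPM against 651 and 469 (-0.96 ± 0.17, edgeR adjusted p = 0.0336), and *Ltc4s* at 283 and 269 against 581 and 654. *Hgsnat*, a lysosomal acetyltransferase gene, and *Mctp1* were the others by the rule. In each of these genes the low cells of both libraries lay above the high cells of both, though the rule required the same direction in both libraries. With the 8% of cells of the highest doublet scores removed, the calls of *Stab1* (adjusted p = 0.0602), *Ccr2* (0.0749), *Mctp1* (0.0796), *Myo1e* (0.0655) and *Crip1* (0.243) were lost. At a limit of 500 CPM those of *Stab1* (0.0916) and *Mctp1* (0.201) were lost, and with cells of other lineages left out those of *Hgsnat* (0.0547) and *Mctp1* (0.17). DESeq2 did not call *Acvrl1* (0.155) or *Myo1e* (0.0541). A fit with no library term lost *H2-DMa* (0.0691), *Fxyd5* (0.178), *Ccl8* (0.566), *Ccr2* (0.406), *Myo1e* (0.165), *Crip1* (0.656), *Ccl2* (0.283), *Folr2* (0.654), *Stab1* (0.654), *Hgsnat* (0.654), *Mctp1* (0.715) and *Ltc4s* (0.737).

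Genes of the gate, given as a description, divided the same way. *Lyve1* was detected in 38.0% of high and 73.6% of low BAM in C-ON and in 35.1% and 84.8% in FMC_new. *Cbr2* was detected in 46 of 92 high cells and 83.0% of low cells in C-ON and in 48.9% and 84.8% in FMC_new. *F13a1* differed little, with a UMI in 94.6% of high and 100% of low cells of C-ON and in 91.0% and 93.9% of those of FMC_new. *Timd4*, a marker of long-lived macrophages, was detected in 26.1% of high and 32.1% of low cells in C-ON and in 26.6% and 45.5% in FMC_new, and *Siglec1* in 23 of 92 and 22.6% and in 31.9% and 27.3%. For *Timd4* and *Siglec1* the intervals overlapped in both libraries.

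**Figure D5:**
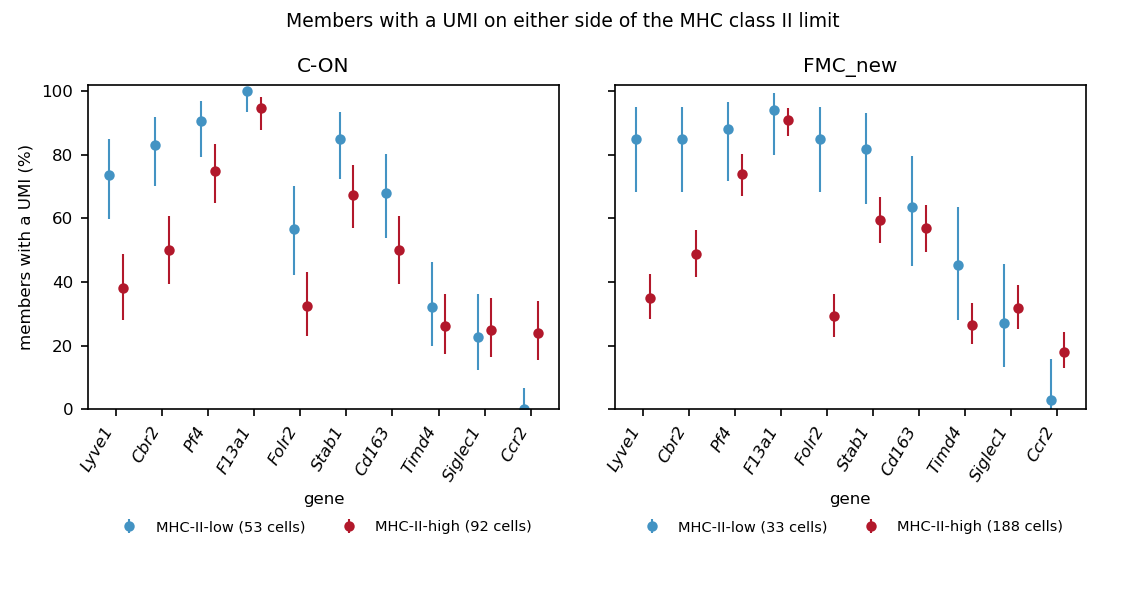
Share of MHC-II-low (blue) and MHC-II-high (red) BAM with a UMI of 10 genes in C-ON (left) and FMC_new (right), with exact Clopper-Pearson 95% intervals. *Lyve1* lay at 38.0% and 73.6% in high and low cells of C-ON and at 35.1% and 84.8% in FMC_new, and *Ccr2* was higher in MHC-II-high cells.

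Between the libraries no test is possible, since each is 1 pool of the same group. Of 3263 genes with at least 100 UMIs over all BAM, the 10 with the largest ratio toward FMC_new were *Gh* and *Prl*, hormone genes of the pituitary, and 8 immunoglobulin variable genes. *Gh* was at 18169 CPM in FMC_new BAM and 6075 CPM in FMC_new T cells, and at 0 in both classes of C-ON. *Igkv3-1* had 7258 UMIs in FMC_new BAM, of which 99.8% came from 1 cell, and the same held for *Ighv2-9* with 99.7% and *Ighv1-64* with 98.6% of their UMIs.

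Toward C-ON, *Il12b* (139 UMIs) and *Ccr7* (111 UMIs) were each found in 1 of 145 cells. That cell also gave 96.2% of the *Ccl5* UMIs, had 15219 UMIs in all and 6 of the summed gate genes. *Igkv8-19* had 99.0% of its 5928 UMIs in 1 other cell, and *Kitl*, the ligand of Kit, 69.0% of 116 UMIs in 1 cell. The other genes toward C-ON moved in T cells too: *Tubb4a* had a ratio of FMC_new to C-ON of 0.239 in BAM and 0.345 in T cells, *Gng11* 0.233 and 0.345, *Cmtm5* 0.238 and 0.334, and *Tmtc2* 0.245 and 0.312.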

How the data were processed

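Single-cell suspensions of *Nf1*-OPG optic nerves had been run on a 5′ v2 droplet kit, and reads had been counted by the authors in Cell Ranger (version 7.2.0 in the submitters' processing notes, which also name Seurat 5.2.1; the paper's methods name another Cell Ranger version) on mm10. The deposited values are raw UMI counts per gene and barcode for 32285 genes, with neither normalization nor merging of libraries.

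Barcodes with 500 to 5000 genes, 500 to 20000 UMIs and at most 5% mitochondrial UMIs were kept, after the study's methods. Classes were gated on raw UMIs, and genes of the gates were left out of tests. Cells that met the BAM gate and another gate were kept as BAM only. Cells of any macrophage, microglia or monocyte class were left out of the T cells. Of the BAM, 1 cell of C-ON and 21 of FMC_new also met the T cell gate and 2 of FMC_new the monocyte gate. Counts were summed per class and library (sums of at least 20 cells) and tested with edgeR 4.0.16 (quasi-likelihood, Benjamini-Hochberg, threshold 0.05) under R 4.3.3, with library as a term, since the classes of a library share 1 suspension. Differences between the libraries correlated between BAM and microglia (r = 0.57) and between BAM and C1q macrophages (r = 0.62) over 10175 genes. CPM is UMIs per 1000000 over the cells of a class. Intervals are exact (Poisson for CPM, Clopper-Pearson for shares, 95%). To compare shares, cells were thinned to 1000 UMIs.

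The members and gene lists were chosen with earlier results of these data known. The rule names, for each comparison, the 12 genes with the largest fold change each way among those called, at 50 CPM or more in the higher class of both libraries, in the same direction in both libraries and without a provisional name, and allows list genes. For the libraries it names the 10 largest ratios each way.

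No doublets were removed. Scrublet's own limit marked 4 of 8834 and 0 of 16818 cells, so it had not worked, and removal of the 8% with the highest scores, and of cells with genes of another lineage, was added after the data were seen. Alternatives were DESeq2 1.42.0, no library term, no filter on low counts, a sum of at least 8, other MHC class II limits and 10% mitochondrial UMIs. On simulated counts the fit was tested for recovery of changed genes. Scores came from scanpy 1.11.5, and tables and intervals from pandas 2.3.3, scipy 1.17.1 and numpy 2.4.6 in Python 3.11.15. Results for some genes of the lists are not reported here, although the counts over the lists include them.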

Additional observations from a re-analysis of the deposited data

Results flagged for a closer look

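Barcodes outside the limits on genes, UMIs and mitochondrial share entered no comparison, and some of them met the gate. In C-ON they were 8 of 2011 such barcodes (0.398%, exact 95% interval 0.172% to 0.782%), and in FMC_new 25 of 4523 (0.553%, interval 0.358% to 0.815%). They are listed because they lie outside the cells compared and exceed the share that a count of 0 would allow, 0.149% and 0.0663%, which any count over 3 does. Of the 8, 5 exceeded the limit of 5000 genes and 4 that of 20000 UMIs, and of the 25, 10 exceeded each of these and 8 had fewer than 500 genes.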

How the results depend on the processing

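Without the library term (no replicate block, so that the pairing of classes within a library is ignored), fewer genes were called: 243 higher and 337 lower in BAM than in microglia, 48 and 17 against C1q macrophages, 174 and 136 against the monocyte gate, and 6 and 1 in MHC-II-high cells. DESeq2 called 424 higher and 427 lower against microglia, 165 and 114 against C1q macrophages and 218 higher against the monocyte gate. With no filter on low counts the calls were 483 and 600 against C1q macrophages, 745 and 589 against the monocyte gate and 134 and 60 in the MHC class II split. In that split, 19 genes were lower with the limit at 2000 CPM and likewise 19 with cells of other lineages left out. The cause of these changes was not tested. The share of BAM was 0.978% with a sum of at least 8 and 0.579% at 1000 UMIs per cell, both by construction a stricter gate, and between 1.31% and 1.64% with 1 library left out. No count of genes can be had with 1 library left out, because no residual degrees of freedom remain.

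Of 2114 values of named genes under an alternative with a test, 142 lost a call and 57 gained one. All 1397 of these values whose gene was called kept their direction, as did 667 of the 717 whose gene was not. With 1 library left out there is no test, and 365 of 366 values of called genes and 167 of 200 of the others kept their direction. Genes named by the rule had to go the same way in both libraries, so for them this was fixed by the choice. The exception among the called was *Fcgr1* against the monocyte gate: leaving out each library in turn, its log2 ratio ranged from -0.175 to 1.89, with the lower value without FMC_new, where 11 cells of the gate stand behind it. The planned removal of doublets by Scrublet's own limit was not run, since that limit marked too few cells. The MHC-II-low cells of FMC_new number 33, which limits the depth of the split.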
